A study of Mus musculus with 2 samples.

Results

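The genes described here are the nuclear-encoded parts of oxidative phosphorylation, the mitochondrial system that turns the oxidation of NADH and succinate into ATP. They were chosen by name: every gene whose symbol begins with Nduf, Sdh, Uqcr, Cox4, Cox5, Cox6, Cox7, Cox8 or Atp5 and that had at least 100 unique molecular identifiers (UMIs, 1 per captured transcript) over both libraries, without Cox6a2. The rule took 92 of 31053 genes. By symbol, 36 belong to complex I, 4 to complex II, 8 to complex III, 16 to complex IV and 16 to the ATP synthase, and 12 are assembly factors (Ndufaf and Sdhaf), which build complexes I and II and are not parts of the finished enzymes. Ndufa4 and its paralogue Ndufa4l2 were counted with complex IV, where the NDUFA4 protein is found. Of 97 gene entries with these prefixes, Cox8c and a second entry of the symbol Atp5o had 0 UMIs, Cox8b had 4 and Cox7b2 had 11, while the lowest members inside the limit were Cox6b2 with 239 and Cox4i2 with 621. The 13 mitochondrially encoded protein genes, named mt-, are given beside them.

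Complex I (NADH dehydrogenase) and complex II (succinate dehydrogenase, which is also an enzyme of the TCA cycle) pass electrons to coenzyme Q, complex III passes them to cytochrome c, and complex IV (cytochrome c oxidase) passes them to oxygen. Complexes I, III and IV pump protons, and the ATP synthase uses the returning protons to make ATP. All of them but complex II contain subunits of both genomes, so nuclear and mitochondrial transcripts are needed together. Osteoclasts, the bone-resorbing cells of the macrophage lineage, are known for their many mitochondria, and tumour cells are known for high glycolysis.

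The data are single-cell RNA profiles, made in droplets and read from the 3' end, of subcutaneous tumours of MC38, a mouse colon carcinoma line, grown in mice. There were 2 libraries, 1 from tumours overexpressing UBD (ubiquitin D, also called FAT10, a ubiquitin-like protein modifier) and 1 from control tumours, in a study of immune evasion and anti-PD1 treatment. The labels name no drug given to either group, and the host strain, age, number of mice in a library and overexpression construct are not stated in the labels. With 1 library per group there is no replicate error and no test, so every difference below describes these 2 libraries, and all intervals are 95% and cover counting error only.

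The UBD and control libraries held 204267192 and 173973178 UMIs, and 13057 and 13823 cells were kept, the median cell holding 12186 and 4334 UMIs. The libraries shared 60 cell barcodes. Cells were put into 5 classes by UMIs of Acp5 with Ctsk (osteoclast-like), C1qa (macrophage), Cd3e (T), S100a8 (neutrophil) and Cdkn2a (tumour). In the UBD and control libraries the osteoclast-like class had 728 and 134 cells, the macrophages 1743 and 2192, the T cells 231 and 223, the neutrophils 18 and 140, and the tumour cells 7635 and 4667, while 2702 and 6467 cells fell in none. The classes were set against markers that the class rule did not use, in counts per 1000000 UMIs (CPM). The 5 further osteoclast-like markers (Mmp9, Atp6v0d2, Ocstamp, Dcstamp and Calcr) summed to 6789 and 4784 CPM in osteoclast-like cells, against 57.0 and 29.4 CPM in macrophages. In neutrophils they summed to 747 and 249 CPM, all from Mmp9. The 5 further macrophage markers summed to 7579 and 7524 CPM in macrophages, against 17.6 and 25.9 CPM in tumour cells. They summed to 418 and 529 CPM in osteoclast-like cells and to 550 and 202 CPM in neutrophils. The 5 further T markers summed to 5554 and 5813 CPM in T cells, against at most 26.3 CPM in the other classes. The 4 further tumour markers summed to 291 and 209 CPM in tumour cells, against 5.03 to 78.6 CPM in the other classes, and 4 Y-linked genes to 0.387 and 1.68 CPM, against 39.3 to 188 CPM. Fibroblast markers summed to 822 and 924 CPM in tumour cells. Ubd itself, the gene that should be higher in the UBD library, was 1.17 CPM (179 UMIs) in UBD and 0.362 CPM (45 UMIs) in control tumour cells, present in 1.17% and 0.621% of cells. In macrophages the order was the other way, with 0.379 CPM (4 UMIs) in UBD and 1.48 CPM (15 UMIs) in control cells. A 3' read can miss a construct that lacks the mouse 3' end.

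The start regions of these genes are shown first, because nuclear respiratory factor 1 (NRF1) is the transcription factor best known for binding promoters of respiratory chain genes. RefSeq promoter windows (build GRCm38.p6, 300 bases, 250 before the start site and 50 after it) matched 76 of 92 members, by Ensembl gene identifier or, failing that, by symbol. The letters GCGCANGCG, the core of the NRF1 motif, were searched on both strands and stood in 24 members, 31.6% of those matched, against 23.2% of 69 mitochondrial ribosome genes and 7.03% of all 27025 genes with a window. These letters were shortened from a longer form after the matches of that form had been seen. The windows of matched members were also richer in G and C, with a median of 58.8% of letters against 53.3% for all genes. The part of this in the motif shares was not tested. Windows are printed for Sdha, Sdhd, Cox6a1 and Cox7a1, from 250 bases before the RefSeq start site up to it, with the NRF1 letters in capitals. Sdha (the catalytic flavoprotein of complex II) and Sdhd (one of its membrane anchors) belong to the complex with the largest osteoclast-like excess, Cox6a1 encodes a small complex IV subunit, and Cox7a1 is the complex IV isoform with its highest level in osteoclast-like cells.
Sdha (chr13:74350241-74350490, minus strand): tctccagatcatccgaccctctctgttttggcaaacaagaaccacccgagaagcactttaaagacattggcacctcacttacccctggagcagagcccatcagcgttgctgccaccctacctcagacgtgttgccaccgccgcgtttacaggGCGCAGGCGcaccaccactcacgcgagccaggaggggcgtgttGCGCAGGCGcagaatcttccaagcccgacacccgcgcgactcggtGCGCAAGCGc
Sdhd (chr9:50603850-50604099, minus strand): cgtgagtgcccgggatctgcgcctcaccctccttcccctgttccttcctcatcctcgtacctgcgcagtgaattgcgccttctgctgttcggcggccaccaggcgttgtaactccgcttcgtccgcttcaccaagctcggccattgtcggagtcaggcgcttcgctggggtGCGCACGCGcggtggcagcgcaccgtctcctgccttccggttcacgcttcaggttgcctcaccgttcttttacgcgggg
Cox6a1 (chr5:115348959-115349208, minus strand): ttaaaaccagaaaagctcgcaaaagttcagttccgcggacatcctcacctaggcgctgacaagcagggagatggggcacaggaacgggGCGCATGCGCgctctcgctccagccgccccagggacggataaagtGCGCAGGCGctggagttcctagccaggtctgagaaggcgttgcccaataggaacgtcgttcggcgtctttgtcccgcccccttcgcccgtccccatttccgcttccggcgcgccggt
Cox7a1 (chr7:30183921-30184170, plus strand): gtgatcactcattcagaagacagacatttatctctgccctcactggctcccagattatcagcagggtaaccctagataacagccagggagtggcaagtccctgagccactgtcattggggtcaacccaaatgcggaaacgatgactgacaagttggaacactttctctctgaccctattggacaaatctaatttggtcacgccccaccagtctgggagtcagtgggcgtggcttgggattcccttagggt

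In these lines Sdha held 3 matches, Sdhd 1, Cox6a1 3 (of which 2 overlap, on opposite strands) and Cox7a1 0. The letters CCGGAAG (GABPA, the other classical nuclear respiratory factor, also called NRF2 in this field) stood in 27.6% of matched members against 9.93% of all genes, and AANATGGC (YY1) in 25.0% against 6.96%. No NRF1 match overlapped a GABPA match in the members' windows. At least 1 of the 3 motifs was present in 51 members, 67.1%, against 20.8% of all genes. TNAAGGTCA (ESRRA) stood in 3.95% against 1.43%, and ACGTG (the core of the hypoxia response element) in 22.4% against 21.8%, close to each other. The share with an NRF1 match was 8 of 32 in complex I, 2 of 3 in complex II, 2 of 5 in complex III, 1 of 12 in complex IV, 7 of 13 in the ATP synthase and 4 of 11 among assembly factors. Members with the NRF1 letters did not stand above the others in osteoclast-like over tumour cells: their median log2 ratio was 1.07 in the UBD and 0.89 in the control library, against 1.22 and 1.05 for matched members without them. Over macrophages it was 1.24 and 1.01 with the letters, against 1.06 and 1.05 without, so the order differed between the libraries. A match is a description of letters and not a bound site.

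Oxidative phosphorylation transcripts took the largest share of UMIs in the osteoclast-like cells of both libraries. The 92 members made up 6.28% of all UMIs there in the UBD and 5.29% in the control library. Macrophages had 2.80% and 2.41%, T cells 2.91% and 2.75%, neutrophils 1.89% and 1.14%, and tumour cells 2.79% and 2.67%. Macrophages, T cells and tumour cells thus lay within 2.41 to 2.91%, in an order that differed between the libraries, while osteoclast-like cells lay apart above them and neutrophils below. The same held cell by cell, with a median share of 6.34% and 4.82% per osteoclast-like cell (10th to 90th percentile 4.18 to 8.24% and 3.02 to 6.73%), against 2.82% and 2.65% per tumour cell (2.17 to 3.49% and 1.80 to 3.32%). The ranges of the osteoclast-like and tumour cells did not meet in the UBD library and overlapped in the control library. The 13 mt- genes took 5.82% and 4.20% of UMIs in osteoclast-like cells and 3.44% and 3.51% in tumour cells.

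**Figure D1:**
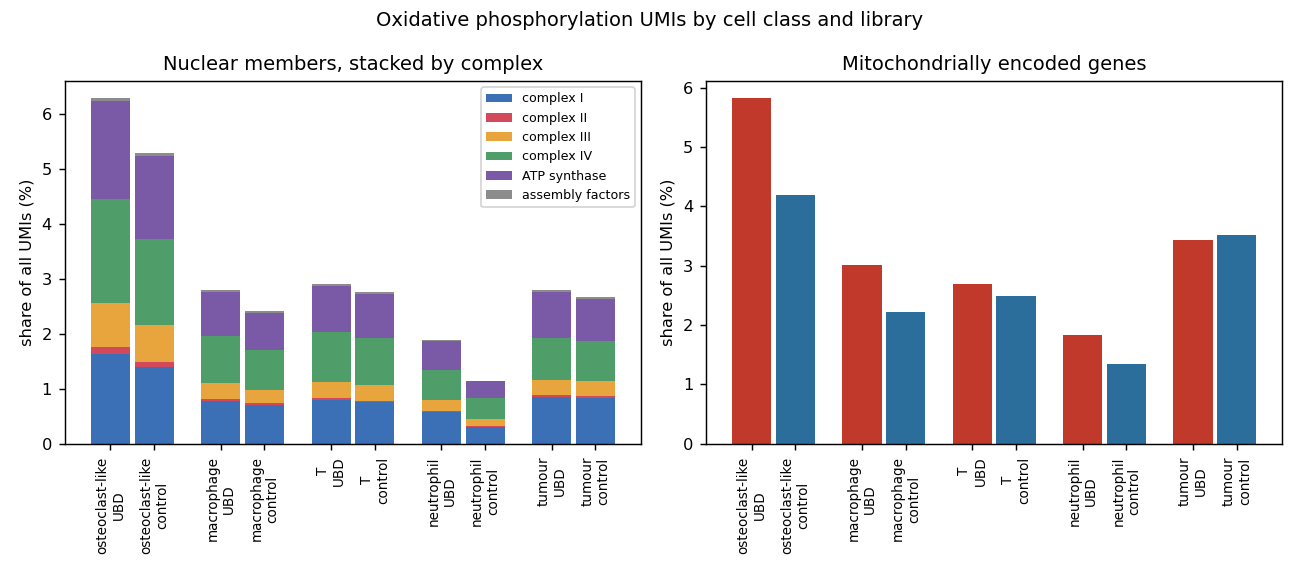
Share of all UMIs (%) taken by the 92 nuclear members, stacked by complex (left), and by the 13 mt- genes (right), in each cell class of the UBD and the control library. Osteoclast-like cells stand highest in both panels, at 6.28% and 5.29% for the nuclear members.

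Complexes II and III had the largest excess in osteoclast-like over tumour cells, and assembly factors the smallest. Complex II summed to 1269 and 1048 CPM in osteoclast-like cells of the UBD and control libraries, against 351 and 345 in tumour cells, 3.61 and 3.04 times as much. Complex III summed to 8140.2 and 6647 CPM, against 2729.8 and 2626, 2.98 and 2.53 times as much. The ratio was 2.49 and 2.12 for complex IV, 2.14 and 1.99 for the ATP synthase, 1.89 and 1.65 for complex I, and 1.38 and 1.251 for the assembly factors. The order of the 6 groups was the same in both libraries. Over macrophages, the cells nearest in lineage, the sums were 3.02 and 3.11 times as high for complex II, 2.84 and 2.83 for complex III and 1.62 and 1.46 for assembly factors.

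Gene by gene, 78 of 90 members with enough UMIs were at least 1.5-fold higher in osteoclast-like than in tumour cells of the UBD library, and 70 of 90 in the control library. Among all genes tested, 20.6% and 18.9% were. The median log2 ratio of the members was 1.17 (1.05 to 1.27) and 0.99 (0.90 to 1.07), beside -0.47 and -0.41 over all genes tested; the interval here is the spread between members. Members past the fold in both libraries numbered 70 of 90, against 15.0% of all genes tested in both. At least 1.5-fold lower in each library were 3 of 90, beside 46.3% and 43.4% of all genes: Ndufa4l2 and the assembly factors Ndufaf2 and Ndufaf7. Of all genes tested in both libraries, 37.2% were lower in both. Ndufa4l2 rested on 6 UBD and 11 control UMIs in osteoclast-like cells, with 10 of the 11 in a single cell. The 20 members not past the fold upwards in both libraries were Ndufa8, Ndufb11, Ndufa5, Ndufa13, Ndufb7, Ndufa7 and Ndufa2 (complex I), Cox7b and Ndufa4l2 (complex IV), Atp5j2, Atp5s, Atp5g2 and Atp5j (ATP synthase), and Sdhaf4, Ndufaf6, Ndufaf4, Sdhaf3, Ndufaf2, Ndufaf7 and Sdhaf2 (assembly factors). Over macrophages, 80 of 92 and 77 of 90 members were at least 1.5-fold higher, beside 23.9% and 23.9% of all genes.

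**Figure D2:**
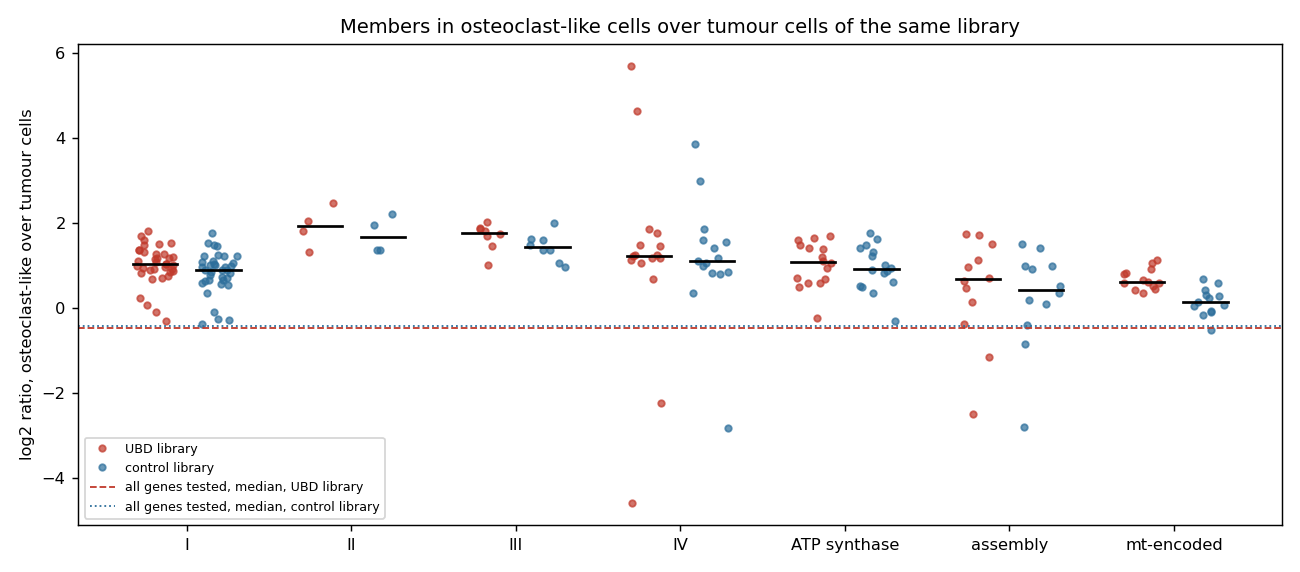
Log2 ratio of each member in osteoclast-like over tumour cells of the same library, by complex, with 1 point per gene (UBD library left, control library right in each pair), black bars for the median of the points and dashed and dotted lines for the median of all genes tested. Nearly all subunits lie above the all-gene lines, which are at -0.47 and -0.41, and the 3 members at least 1.5-fold lower in both libraries lie in complex IV (Ndufa4l2) and among the assembly factors. Cox4i2 and Cox6b2, with too few UMIs to be counted, are drawn in complex IV where both classes had a UMI.

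All 4 subunits of complex II were past the fold in both libraries. Sdha (ENSMUSG00000021577, chromosome 13, 74322254 to 74350280, minus strand, GRCm38, GENCODE vM21), the flavoprotein that oxidises succinate, had 272 and 184 CPM in osteoclast-like cells of the UBD and control libraries, against 48.5 and 39.4 in tumour cells, 5.61-fold (5.36 to 5.87) and 4.67-fold (4.17 to 5.21) higher. It was 76.0 and 55.6 CPM in macrophages and 72.0 and 44.4 CPM in T cells, so that osteoclast-like cells stood above every other class. Sdhb, which carries the iron-sulfur clusters, had 487 and 425 CPM, against 139 and 163 in tumour cells. The membrane anchors followed, with Sdhc 2.52- and 2.59-fold and Sdhd 4.12- and 3.92-fold higher. In complex III all 8 members were past the fold in both libraries. Uqcrfs1, the Rieske iron-sulfur protein, had 506 and 396 CPM in osteoclast-like cells of the UBD and control libraries, against 124 and 98.5 in tumour cells, 4.08-fold (3.95 to 4.21) and 4.02-fold (3.73 to 4.33) higher. Uqcrc1, a core protein, had 334 and 263 CPM, against 92.4 and 93.1. Uqcrq, the member of complex III with the most UMIs, was less apart, 2.02- and 2.10-fold higher.

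Complex I had 32 and 29 of 36 members past the fold in the UBD and control libraries. Its electron-entry subunits were among them: Ndufv1, which binds NADH, had 217 and 190.2 CPM in osteoclast-like cells of the UBD and control libraries, against 90.2 and 80.2 in tumour cells. Ndufs1, the largest iron-sulfur subunit, had 99.3 and 55.4 CPM, against 38.4 and 33.1, 2.59-fold (2.41 to 2.77) and 1.68-fold (1.37 to 2.04) higher, with the UBD and control values of osteoclast-like cells far apart. Ndufa13, the member of complex I with the most UMIs, also known as GRIM-19, was an exception, with 772 and 684 CPM in osteoclast-like cells, against 651 and 815 in tumour cells. Complex IV had 13 and 12 of 14 measured members past the fold. Cox4i1, the common form of the subunit that regulates the enzyme, had 3543 and 2482 CPM in osteoclast-like cells of the UBD and control libraries, against 1483 and 1429 in tumour cells, 2.39-fold (2.36 to 2.42) and 1.74-fold (1.69 to 1.79) higher. Cox5a, a structural subunit, was 3.64- and 3.63-fold higher, and Ndufa4 2.27- and 1.80-fold. Of the ATP synthase, 14 and 12 of 16 members passed. Atp5b, the catalytic beta subunit, had 1569 and 1240.3 CPM in osteoclast-like cells of the UBD and control libraries, against 562 and 465 in tumour cells. Atp5j2, the member with the most UMIs in that complex, was 1.51- and 1.41-fold higher.

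Assembly factors were mixed, with 7 and 5 of 12 at least 1.5-fold higher and 2 lower in each library. Ndufaf7, a methyltransferase needed for complex I assembly, had 5.67 and 3.73 CPM in osteoclast-like cells of the UBD and control libraries, against 31.7 and 26.1 in tumour cells, a log2 ratio of -2.48 and -2.81. Ndufaf2, also a complex I assembly factor, had 36.8 and 40.0 CPM, against 81.7 and 71.0. Sdhaf4, an assembly factor of complex II and the assembly gene with the most UMIs, was at 81.4 and 81.5 CPM, against 73.4 and 76.1, inside the fold although its own complex lay past it. Of the mitochondrial genes outside the chain, the TCA cycle list had 15 and 14 of 17 genes at least 1.5-fold higher (median log2 1.17 and 0.74), while the mitochondrial ribosome had 23 and 23 of 77 (0.28 and 0.29) and import genes a median of 0.15 and 0.07. Glycolysis genes had a median of -0.42 and -0.70, with 5 and 9 of 15 at least 1.5-fold lower, and the cytosolic ribosome -0.11 and -0.09. The regulator list (Ppargc1a, Ppargc1b, Nrf1, Tfam, Esrra and others) had a median of -0.22 and -0.27. Against macrophages the same lists stood higher, with TCA cycle medians of 1.73 and 1.67 and mitochondrial ribosome medians of 0.80 and 0.85.

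Macrophages and T cells lay nearer to tumour cells than osteoclast-like cells did. In macrophages 10 and 12 of 91 members were at least 1.5-fold higher than in tumour cells of the UBD and control libraries, beside 20.5% and 24.1% of all genes, and 13 and 19 were lower, beside 47.2% and 45.9%. The median log2 ratio was -0.04 and -0.29, beside -0.50 and -0.45 over all genes, and it was 0.46 and 0.16 when the all-gene median was set to a ratio of 1, so both signs turned. Ndufa4 was among the members lower in both, with 279 and 265 CPM in macrophages, against 640.5 and 607 in tumour cells. In T cells the median was -0.12 and -0.10, and 0.33 and 0.35 under that scaling; in cells of 2000 to 20000 UMIs the control value was 0.09. Neutrophils rested on 18 and 140 cells with median depths of 1028 and 1300.5 UMIs, and had medians of -0.77 and -1.46, which under that scaling were 0.40 and 0.10.

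The members summed to more in UBD than in control cells of all 5 classes, with most single genes inside 1.5-fold outside the neutrophils. In macrophages the sum was 27975 CPM in the UBD and 24114 CPM in the control library, a ratio of 1.16 (1.15 to 1.17). The share of UMIs was higher in the UBD library in cells of 2000 to 20000 UMIs, but 1.89% in the UBD and 1.997% in the control library in cells of 500 to 2000 UMIs (135 and 320 cells). Past 1.5-fold were 10 higher and 1 lower of 92 members tested, beside 10.8% and 21.1% of all genes tested (31.9% either way), so the share of members past the fold was near the background on the high side and below it on the low side. The median log2 ratio was 0.22 (0.14 to 0.33), beside -0.09 over all genes, and 66 of 92 members were higher at any size, beside 43.5% of all genes. By complex the median was 0.43 for the ATP synthase, with 4 of 16 past the fold, 0.37 for complex III, 0.35 for complex II, 0.20 for complex IV, 0.14 for complex I and 0.09 for assembly factors. Among the 10 were Ndufs1 and Ndufb5 of complex I, Cox4i2 and Cox7a2l of complex IV, Atp5a1, Atp5b, Atp5c1 and Atp5s of the ATP synthase and Sdhaf3, and with the all-gene median set to a ratio of 1 the count either way was 17 in place of 11. Atp5b had 505 CPM in UBD and 314 CPM in control macrophages, 1.61-fold (1.54 to 1.68) higher. Cox7a2l, a factor that joins complexes III and IV into supercomplexes, had 313 and 189 CPM, 1.66-fold (1.56 to 1.75) higher. The largest ratio belonged to Sdhaf3, a complex II assembly factor, at 10.6 and 5.62 CPM from 112 and 57 UMIs. The smallest belonged to Ndufa4l2, with 29 and 58 UMIs, of which a single control cell held 26, then Ndufa3 (-0.35) and Ndufaf8 (-0.28), the last 2 inside the fold.

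Several other measures moved with the macrophage difference. Monocyte markers (Ly6c2, Plac8 and Ccr2) summed to 225 CPM in UBD and 1658 CPM in control macrophages, with 3 of 3 detected in both. Macrophages without a Ly6c2 UMI had 2.80% of UMIs in the members in the UBD and 2.48% in the control library, and those with one 2.84% and 2.33%, so the UBD value was higher in both parts. Gm42418, which lies over a ribosomal RNA repeat and is often taken as a measure of library quality, stood at 2853 CPM in UBD and 10944 CPM in control macrophages. Dissociation-stress genes had a median log2 ratio of -1.09, with 9 of 10 at least 1.5-fold lower. Median depth was 5703 and 4073 UMIs per cell. Cytosolic ribosome genes had a median of 0.33, above that of the members, with 15 of 98 at least 1.5-fold higher, and the mitochondrial ribosome 0.12, TCA cycle genes 0.35 and glycolysis genes 0.52. Their part in the result was not tested.

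In osteoclast-like cells the members summed to 62825 CPM in the UBD and 52862 CPM in the control library, a ratio of 1.19 (1.18 to 1.20), and 80 of 89 were higher at any size, beside 46.3% of all genes. Past 1.5-fold were 4 higher and 0 lower of 89 members tested, beside 9.33% and 15.9% of all genes (25.2% either way). The 4 were Ndufs1, with 99.3 CPM in UBD and 55.4 CPM in control cells, 1.79-fold (1.46 to 2.22) higher, the isoform Cox7a1, the complex II assembly factor Sdhaf1 (75.1 and 45.3 CPM), and the complex I assembly factor Ndufaf7, from 53 UBD and 7 control UMIs. Of 89 members tested, 19 passed with every cell weighted equally, 15 in cells of 2000 to 20000 UMIs and 8 under each of 3 other settings. With no minimum of UMIs it was 7 of 92. The share of all genes past the fold is not given here for these settings, so these counts have no background. The median log2 ratio was 0.23 (0.18 to 0.31), beside -0.04 over all genes. By depth, the members took 6.48% of UMIs in the UBD and 5.22% in the control library in cells of 10000 to 20000 UMIs, but 5.56% and 5.60% in cells of 20000 to 40000 (52 and 42 cells), with no excess in the UBD library there. Marker levels differed as well, since the 5 further osteoclast-like markers summed to 6789 and 4784 CPM, the macrophage markers with C1qa to 501 and 760.3 CPM and Gm42418 to 1335 and 3714 CPM, at median depths of 12356 and 12458 UMIs, and their part was not tested. Ndufa3, Ndufaf6 and Ndufaf8 had the smallest ratios, at -0.27, -0.17 and -0.15 on the log2 scale.

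T cells had a sum of 29121 CPM in the UBD and 27523 CPM in the control library, a ratio of 1.06 (1.04 to 1.08). Past the fold were 3 higher and 3 lower of 85 members tested, beside 11.6% and 12.2% of all genes (23.8% either way), and the median log2 ratio was 0.10 (0.03 to 0.14), beside 0.01. Among members with at least 50 UMIs, those with the largest ratios were Ndufaf4 (0.71), Sdha (0.70) and Ndufaf3 (0.67), and those with the smallest Sdhaf2 (-0.93), Ndufa9 (-0.46) and Ndufs4 (-0.36). Sdha rested on 65 and 53 UMIs, and the 3 lower past the fold, Ndufaf1, Sdhaf2 and Sdhaf3, on 6 to 48 in a library. With at least 100 summed UMIs the count either way was 1 of 75 tested, and with no minimum 11 of 91. In neutrophils the sum was 18859 and 11426 CPM, a ratio of 1.65 (1.49 to 1.82). Of the 46 members with at least 20 UMIs, 29 were at least 1.5-fold higher and 1 lower, beside 25.3% and 26.9% of all genes (52.2% either way). These values come from 18 UBD cells, and Atp5j2, with the largest ratio among members with at least 50 UMIs, rested on 14 UBD and 51 control UMIs. With at least 100 summed UMIs only 4 members were tested, and 2 of them were past the fold. In cells of 2000 to 20000 UMIs it was 12 of 20 tested. The share of all genes past the fold is not given here for these settings. Of the cytosolic ribosome genes, 60 of 80 were at least 1.5-fold higher in the same cells. Atp5l (0.76) and Ndufb9 (0.71) came next among those members, and Cox7c (-0.47), Cox7a2 (-0.06) and Cox6b1 (0.14) were the smallest.

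**Figure D3:**
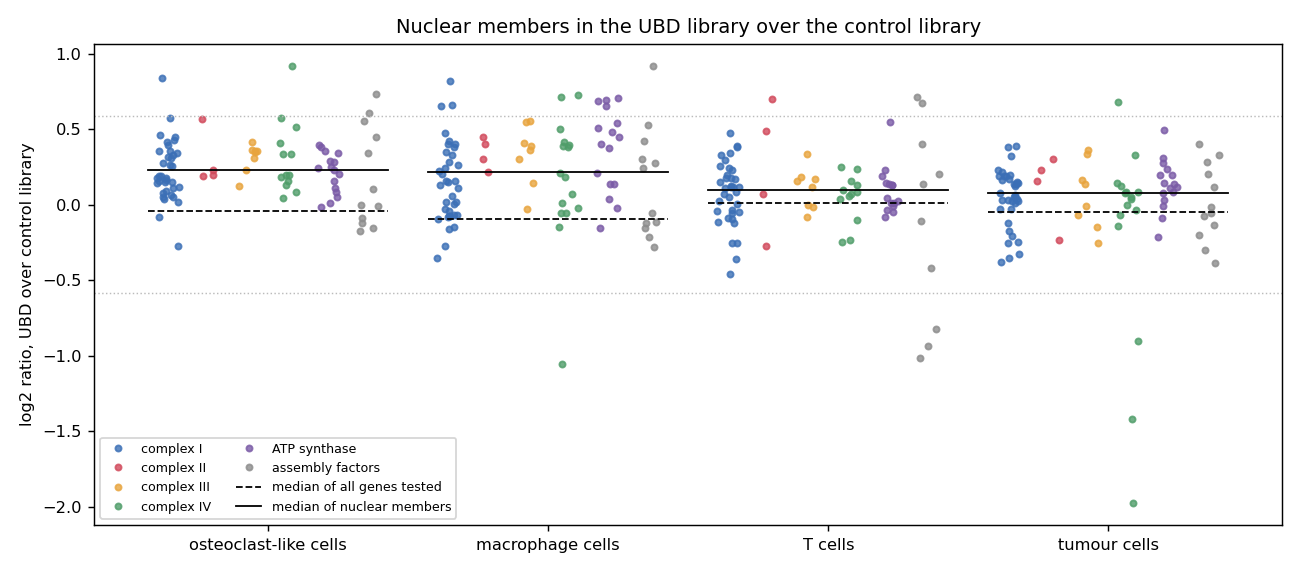
Log2 ratio of each nuclear member in the UBD over the control library, by cell class and coloured by complex, with the member median (solid), the median of all genes tested (dashed) and 1.5-fold either way (dotted). The member medians are 0.23, 0.22, 0.10 and 0.08 in osteoclast-like, macrophage, T and tumour cells, each above the all-gene median, and few points pass the dotted lines.

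In tumour cells the sum was 27939.6 CPM in the UBD and 26744 CPM in the control library, a ratio of 1.04 (1.04 to 1.05). Past the fold were 1 higher and 3 lower of 92 members tested, beside 8.95% and 20.7% of all genes tested (29.6% either way), and the median log2 ratio was 0.08 (0.03 to 0.13), beside -0.05. None of the members of complexes I, II and III and the ATP synthase passed it. Cox7a2l (ENSMUSG00000024248, chromosome 17, 83501918 to 83517330, minus strand) was the 1 member past the fold upwards, with 251 (248 to 253) CPM in UBD and 157 (154 to 159) CPM in control cells, 1.60-fold (1.57 to 1.63) higher. The delta subunit of the ATP synthase, Atp5d, followed with 376 and 267 CPM, 1.41-fold higher, and then Sdhaf1, at 22.5 and 17.0 CPM. Lower past the fold were Ndufa4l2, Cox4i2 and Cox6b2, the last from 5 UBD and 16 control UMIs. Ndufaf4, the next smallest with at least 50 UMIs, had 38.7 and 50.7 CPM. The reference lists were at 0.16 for the TCA cycle, 0.07 for the mitochondrial ribosome, 0.15 for the cytosolic ribosome and -0.24 for glycolysis, with 4 of 15 glycolysis genes at least 1.5-fold lower. Further respiratory genes stood near 0 in this class, with medians of -0.04 for 9 carriers and subunits under other symbols, -0.02 for 32 other assembly factors, 0.02 for import genes and 0.05 for regulators.

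Tumour cells of the 2 libraries differed in depth and RNA quality, with medians of 17412 and 22927 UMIs, 996 and 2573 CPM of Gm42418 and a dissociation-stress median of -0.72. In cells of 5000 to 10000 UMIs the members took 2.90% of UMIs in the UBD and 2.22% in the control library, and in cells of 40000 or more 2.64% and 2.69%, so the order turned in the deepest cells. Cox7a2l was higher in the UBD library in every bin, with 279 against 79.5 CPM at 5000 to 10000 UMIs and 239.8 against 162 CPM at 40000 or more. By subset, cells with a Krt18 UMI, an epithelial keratin, had 2.85% in the UBD and 2.85% in the control library, those with H19, an imprinted RNA, 2.76% and 2.57%, and those with Serpinb2, a plasminogen activator inhibitor, 2.52% and 2.57%. Cells with the interferon-induced Cxcl10 had 2.80% and 2.68%. The make-up of the class differed between the libraries. A Krt18 UMI was present in 18.8% of UBD and 5.87% of control tumour cells, and H19 in 32.7% and 10.4%. Serpinb2 was present in 2.36% and 13.4%, and Cxcl10 in 30.4% and 88.7%. Cycling cells (a Top2a or Mki67 UMI) had 2.80% and 2.69%, close to the 2.78% and 2.62% of the others. The median log2 ratio of UBD over control was 0.02 in the cells with Krt18 and -0.04 in those with Serpinb2, in place of 0.08. In cells of 2000 to 20000 UMIs it was 0.21, beside -0.14 over all genes, with 21 of 91 members past the fold in place of 4. The share of all genes past the fold in these cells is not given here, so the count has no background. The part of depth and RNA quality in these values was not tested.

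**Figure D4:**
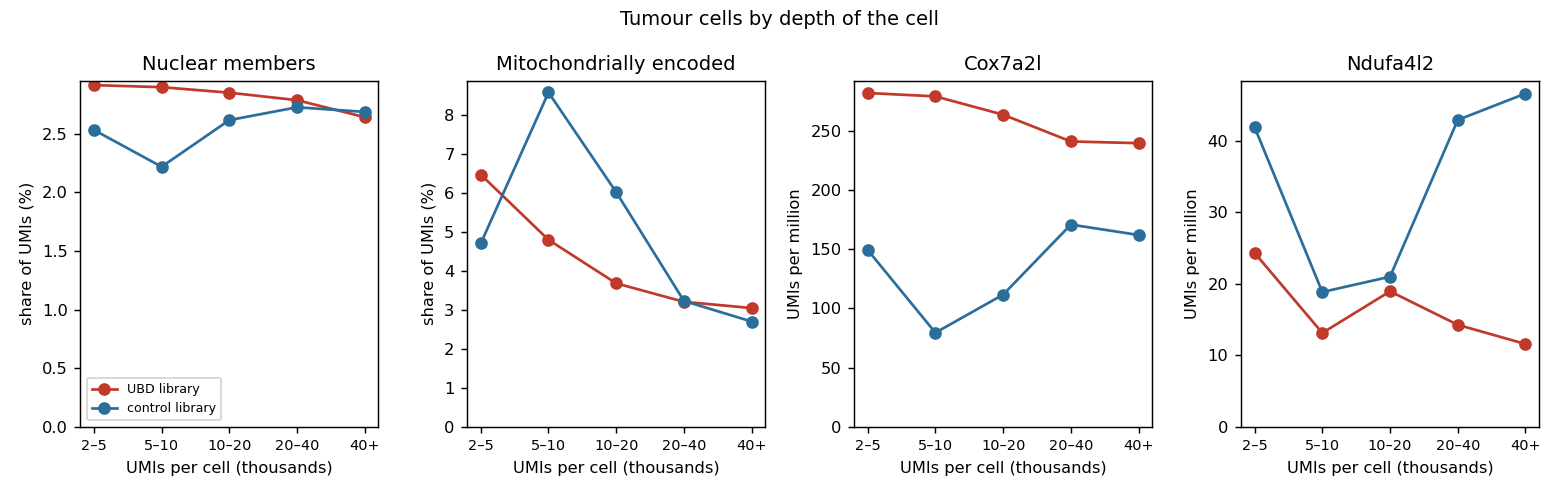
Tumour cells of the UBD and control libraries binned by UMIs per cell: share of UMIs (%) in the nuclear members and in the mt- genes, and CPM of Cox7a2l and Ndufa4l2. Cox7a2l lies higher in the UBD library in all 5 bins, the nuclear members cross at the deepest bin, and Ndufa4l2 lies lower in the UBD library in all 5, with nearly equal values of 18.9 and 21.0 CPM at 10000 to 20000 UMIs.

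Cox7a1 (ENSMUSG00000074218, chromosome 7, 30184144 to 30186078, plus strand), the heart and muscle form of a small complex IV subunit, had 67.5 (62.3 to 73.0) CPM in osteoclast-like cells of the UBD and 35.7 (27.7 to 45.3) CPM of the control library, against 14.9 and 15.5 CPM in macrophages and 2.70 and 2.45 CPM in tumour cells. It was 25.0-fold (22.0 to 28.4) and 14.6-fold (11.02 to 19.05) higher than in tumour cells, the largest ratio of the 90 members tested in both libraries. A Cox7a1 UMI was present in 42.9% (39.2 to 46.5) and 26.9% (19.6 to 35.2) of osteoclast-like cells, and in 4.99% and 5.34% of the deeper tumour cells (median 17412 and 22927 UMIs, against 12356 and 12458). Even there it was 3.14% and 2.09% of the UMIs of Cox7a1, Cox7a2 and Cox7a2l together. Between libraries it was 1.89-fold (1.47 to 2.47) higher in UBD osteoclast-like cells. In such cells of 10000 to 20000 UMIs it was 75.7 CPM in the UBD and 29.0 CPM in the control library, the latter from 16 UMIs. At 20000 to 40000 UMIs it was 45.3 and 40.1 CPM, from 55 and 44 UMIs. Among the UMIs of Cox7a1, Cox7a2 and Cox7a2l, the share of Cox7a2l was 30.2% in UBD and 22.8% in control tumour cells. It was 31.1% and 23.6% in macrophages, 33.0% and 27.9% in osteoclast-like cells and 29.0% and 28.6% in T cells. The share was higher in the UBD library in the first 3 of these classes and nearly equal in T cells.

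**Figure D5:**
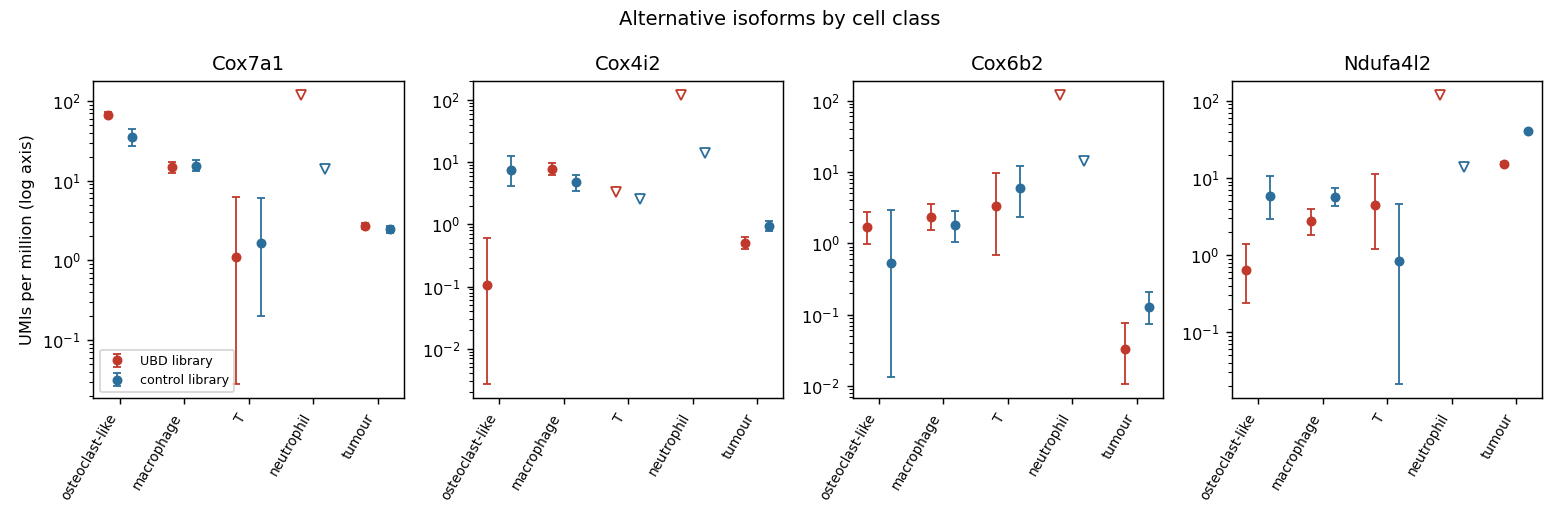
CPM (log axis) of 4 alternative isoforms in each cell class of the UBD and control libraries, with exact Poisson 95% intervals; open triangles mark the limit of 3 counts where no UMI was found. Cox7a1 is highest in osteoclast-like cells and Ndufa4l2 in tumour cells, where it is 15.4 CPM in the UBD and 41.2 CPM in the control library.

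Ndufa4l2 (ENSMUSG00000040280, chromosome 10, 127514967 to 127517154, plus strand), a hypoxia-induced paralogue of Ndufa4, had 15.4 (14.8 to 16.0) CPM in UBD and 41.2 (40.1 to 42.4) CPM in control tumour cells, 2.68-fold (2.55 to 2.81) lower in the UBD library. It was concentrated in few cells, with a UMI in 8.71% (8.09 to 9.36) and 15.8% (14.8 to 16.9) of them, against 1.09% and 1.28% of macrophages, and up to 45 and 70 UMIs in a single cell. Its share of the UMIs of the pair with Ndufa4 was 2.35% in UBD and 6.35% in control tumour cells. Tumour cells with a Ndufa4l2 UMI had a glycolysis sum of 13727 CPM in the UBD and 17792 CPM in the control library, against 9291 and 10717 CPM in those without. The other members took 2.63% and 2.56% of their UMIs, against 2.81% and 2.70%. Cells with the UMI were deeper, at medians of 19082 and 32643 UMIs, against 17260 and 20899. In cells of 2000 to 20000 UMIs the log2 ratio of UBD over control was -0.29 in place of -1.42, inside the fold.

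Cox4i2, the lung and hypoxia form of Cox4, had 7.77 (6.18 to 9.65) CPM in UBD and 4.73 (3.49 to 6.27) CPM in control macrophages, and 0.505 and 0.942 CPM in tumour cells. A single control tumour cell held 20 of the 117 control UMIs, and in osteoclast-like cells 1 UBD and 14 control UMIs were found, 12 of them in 1 control cell. The tumour log2 ratio of UBD over control, -0.90, turned to 1.91 with the Cdkn2a minimum doubled and to 1.18 without the cells highest in Gm42418. Cox4i1 made up 99.5 to 100% of the pair in the 5 classes of both libraries. Cox6b2, the testis form of Cox6b1, was at or below 5.87 CPM in every class, with at most 25 UMIs. The 3 genes of the ATP synthase c subunit, Atp5g1, Atp5g2 and Atp5g3, encode one mature protein. Their shares in the UBD library were 48.0%, 26.9% and 25.1% of UMIs in osteoclast-like cells, against 41.9%, 38.8% and 19.3% in tumour cells, and in the control library 45.9%, 29.1% and 25.0%, against 42.1%, 38.0% and 19.9%. Atp5g2 thus had a smaller share of the 3 in osteoclast-like cells of both libraries, although its own level was higher there, at 1042 and 963 CPM in osteoclast-like cells of the UBD and control libraries, against 742 and 671 CPM in tumour cells. These shares are of captured 3' ends, and near-identical copies or overlapping genes can take UMIs from one another: 12 members overlap another gene on the same strand and 34 one on the opposite strand.

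The mt- genes differed from the nuclear members in both comparisons. In osteoclast-like over tumour cells their median log2 ratio was 0.61 in the UBD and 0.15 in the control library, with 9 and 2 of 13 at least 1.5-fold higher, below every nuclear complex. The number of mt- UMIs per nuclear UMI was 0.926 and 0.794 in osteoclast-like cells, against 1.23 and 1.31 in tumour cells. Over macrophages the median was 0.98 and 0.91, with 13 and 12 of 13 past the fold. In UBD over control, the median was 0.39 in osteoclast-like cells, 0.36 in macrophages, 0.01 in T cells and -0.11 in tumour cells. mt-Cytb, cytochrome b of complex III, had 6448 and 3941 CPM in UBD and control osteoclast-like cells, 2696 and 1722 in macrophages, 2234 and 1868 in T cells and 4492 and 3556 in tumour cells. mt-Co3, a core subunit of complex IV, had 11294 and 6776 CPM in UBD and control osteoclast-like cells, 6444 and 3737 in macrophages, 5644 and 4666 in T cells and 6386 and 5427 in tumour cells. Both were higher in the UBD library in all 4, while its partner mt-Co2 was 5019 and 6168 CPM in tumour cells, lower in UBD. The log2 ratios in tumour cells ranged from -0.44 for mt-Nd3 to 0.34 for mt-Cytb. The mt- UMIs per nuclear UMI in tumour cells were 1.65 in UBD and 1.35 in control cells for complex III, but 2.21 and 2.39 for complex IV, 0.698 and 0.754 for complex I and 0.859 and 1.01 for the ATP synthase. In tumour cells of 2000 to 20000 UMIs the mt- median was -0.73 in place of -0.11, and the mt- share was 6.47% of UMIs in the UBD and 4.70% in the control library in cells of 2000 to 5000 UMIs, 4.80% and 8.58% at 5000 to 10000 and 3.68% and 6.02% at 10000 to 20000. It was thus higher in the UBD library in the shallowest of these bins and lower in the others, while the nuclear share was higher in the UBD library in all 3. With a limit of 10% of UMIs from mt- genes per cell in place of 20%, the osteoclast-like median of UBD over control was 0.12 in place of 0.39.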

How the data were processed

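The authors deposited UMI counts per gene and cell barcode, with 3' libraries made by 10x chemistry per the labels. Cell Ranger, STAR and build mm10 are named in the submitters' processing notes, and a matrix writer version 3.1.0 in the matrix headers; no source used here gives the annotation release or the settings. Deposited counts were used with no further normalization than scaling to 1000000 UMIs.

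Cells with at least 200 genes and 500 UMIs and at most 20% of UMIs from mt- genes were kept (13619 of 14158 UBD and 14353 of 14890 control barcodes). Scrublet (in scanpy 1.11.5, expected rate 0.1) then removed 562 and 530 predicted doublets. A class needed 2 Acp5 and 2 Ctsk UMIs (osteoclast-like), 3 C1qa (macrophage), 2 Cd3e (T), 10 S100a8 (neutrophil) or 5 Cdkn2a (tumour). It also needed at most 2 Cdkn2a, 2 C1qa (not for osteoclast-like cells), 0 Cd3e and 5 S100a8 UMIs where these mark another class, and a cell with 2 Acp5 and 2 Ctsk UMIs entered no other class. These minima were set after seeing the data, and the members and lists were chosen with earlier results of these data known.

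UMIs were summed per class and library and given as CPM, that is, UMIs per 1000000, with exact Poisson intervals, ratios with exact conditional binomial intervals and shares with Clopper-Pearson intervals. A median carries an order-statistic interval over genes. PCR and sampling of cells are not covered by these intervals. In UBD over control a gene needed 20 summed UMIs. Between classes it needed 5 UMIs on the smaller side if the levels were equal, a minimum chosen after seeing the data. Past the fold means at least 1.5-fold. Where 1 side was 0, a limit of 3 counts stands for it. Named by rule were the 3 largest and 3 smallest UBD over control ratios per class among members with at least 50 UMIs. The rule also took the isoform sets, Ndufs1, Ndufv1, Sdha, Sdhb, Uqcrfs1, Uqcrc1, Cox4i1, Cox5a and Atp5b, and the member with the most UMIs per complex. It covered the 13 mt- genes, of which only mt-Cytb, mt-Co3, mt-Co2 and mt-Nd3 are named in the text. The choice of these from the 13, and all other names, came after their values were seen.

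On simulated counts, 97.0% of 2-fold changes were called in tumour cells and 98.4% in macrophages in UBD over control, 91.5% in osteoclast-like over tumour cells and 77.8% in neutrophils, where 31.8% of unchanged genes were called as well. The NRF1 letters were shortened from a form of 10 letters after its matches had been seen. Gene positions are from GENCODE vM21. Python 3.11.15, numpy 2.4.6, scipy 1.17.1, pandas 2.3.3 and matplotlib 3.10.9 were used. Alternatives changed doublets, marker minima, the mt- limit, scaling, weight of cells, RNA quality, depth, the UMI minimum and the fold, and took subsets of tumour cells and macrophages.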

Additional observations from a re-analysis of the deposited data

Results flagged for a closer look

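Cox4i2 went opposite ways in tumour cells and macrophages, with a log2 ratio of UBD over control of -0.90 in tumour cells and 0.72 in macrophages; the difference was not tested, and the tumour value changed sign under 2 alternatives. Sdhaf3 was at 0.92 in macrophages, from 112 UBD and 57 control UMIs, and at -0.82 in T cells, from 6 and 14 UMIs; this difference was not tested either, and the T cell value was 0.51 with a marker minimum of 1 UMI.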

How the results depend on the processing

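Osteoclast-like cells stayed above tumour cells in both libraries under every alternative run. The main neutrophil medians of UBD over control are not given here. The main ratio of summed UMIs in neutrophils was 1.37 (1.24 to 1.51) for the mt- genes and 1.65 for the members. With doublets kept, the mt- median of UBD over control in neutrophils was -0.14. With a marker minimum of 1 UMI the osteoclast-like count of members past the fold was 8, the neutrophil median 0.35 (mt- genes -0.30) and neutrophils over tumour cells -0.44 in the UBD and -0.82 in the control library. Signs then turned for Ndufa4l2 in macrophages (0.59), Ndufaf3 (-0.0825) and Sdhaf3 (0.51) in T cells, Ndufa3 in neutrophils (-0.0055) and Cox4i2 in osteoclast-like over tumour cells of the UBD library (1.21). With the minimum doubled, Cox4i2 in tumour cells was 1.91, and without the cells highest in Gm42418 (above the 90th percentile of their class) 1.18, where the osteoclast-like median was 0.17. At 10% mt- UMIs the osteoclast-like mt- median was 0.12. Scaled without mt-, Gm42418 and ribosomal protein genes, the osteoclast-like count was 8, macrophages over tumour cells -0.48 (control), neutrophils over tumour cells -1.09 (UBD) and -1.81 (control) and osteoclast-like cells over macrophages 1.31 (UBD). With the all-gene median ratio at 1, the counts were 17 in macrophages and 8 in osteoclast-like cells. Over tumour cells the UBD and control values were then 0.46 and 0.16 for macrophages, 0.33 and 0.35 for T cells, 1.64 and 1.39 for osteoclast-like cells and 0.40 and 0.10 for neutrophils. With cells weighted equally the medians were 0.15 in tumour cells (mt- genes -0.37), 0.15 in T cells and 0.36 in osteoclast-like cells (count 19), with osteoclast-like over tumour cells at 0.88 (control) and neutrophils over tumour cells at -0.94 (UBD). In neutrophils Atp5b (-0.45), Ndufa4 (-0.83) and Uqcrq (-0.25) then turned. In cells of 2000 to 20000 UMIs the medians were 0.21 in tumour cells (count 21 of 91, mt- genes -0.73), 0.36 in osteoclast-like cells (count 15 of 89) and 0.32 in neutrophils (count 12 of 20). T over tumour cells was then 0.0915 (control) and neutrophils over tumour cells -0.52 (UBD) and -0.69 (control). Atp5d (-0.25), Cox4i1 (-0.0767) and Ndufb9 (-0.25) turned in neutrophils. With no UMI minimum the counts were 11 of 91 in T cells, 7 of 92 in osteoclast-like cells and 51 of 72 in neutrophils. With at least 100 UMIs they were 1 of 75 in T cells and 2 of 4 in neutrophils. At a fold of 5 to 4 the counts were 17 of 92 in tumour cells, 39 of 92 in macrophages, 18 of 85 in T cells and 32 of 89 in osteoclast-like cells. The share of all genes past the fold is not given here for any of these alternative counts. The tumour median was 0.0201 in cells with Krt18 and -0.0448 in cells with Serpinb2. The cause was not tested for any of these. Of the main values and counts under alternatives, 279 stayed inside the main value's interval (counts: within 1.5 times), and 51 did not. A change of sign, inside the interval or not, occurred in 18 main log2 values, which include the macrophage and T values over tumour cells and the neutrophil mt- values above, and in 99 single-gene values.

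Leaving out the barcodes shared by the libraries, placing 0 at 3 counts, and running the osteoclast-like over macrophage contrast under each alternative were chosen after seeing the data. The mt- values were not run under the scaling without mt- genes. No paired analysis was possible because each group has 1 library. With 1 library per group, the difference between groups cannot be told apart from that between tumours, dissociations or library runs, and the neutrophil values are limited by 18 UBD cells.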

Other observations

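Cells outside the 5 classes were grouped by at least 3 UMIs of marker lists of other tissue types. The fibroblast markers also summed to 822 and 924 CPM in UBD and control tumour cells. Fibroblast-marker cells may therefore include tumour cells with few Cdkn2a UMIs, and this was not tested. Fibroblast-marker cells (201 UBD and 420 control cells) had 2.15% of UMIs in the nuclear members in the UBD and 1.60% in the control library, and 5.37% and 8.41% in the mt- genes. They also held the hypoxia-linked isoforms, with Ndufa4l2 at 84.8 CPM (14 cells with a UMI) in the UBD and 44.4 CPM (20 cells) in the control library and Cox4i2 at 22.8 and 4.68 CPM from 25 and 8 UMIs. Monocyte-marker cells, 629 in the UBD and 2749 in the control library, had 2.65% and 2.23%. Dendritic-marker cells (58 and 76) had 2.28% and 2.10%, endothelial-marker cells (17 and 29) 2.51% and 2.05%, and NK-marker cells (15 and 46) 2.70% and 2.65%. B-marker cells were 17 in the UBD library, with 2.21%. All of these, and the 2702 and 6467 cells of no class that include them (2.80% and 2.29%), lay below the osteoclast-like cells of either library.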
